A study of Oryza sativa with 12 samples.

Results

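The peaks of the histone variant H2A.Z were set against those of the core histone H3 within one genotype, the rice mutant labelled oschz1. The members are the 4 ChIP-seq (chromatin immunoprecipitation and sequencing) libraries of that genotype, 2 labelled oschz1_H2AZ and 2 labelled oschz1_H3, out of 12 samples in the series, of which 8 are ChIP libraries and 4 are inputs. They were chosen by their titles and hold 199742 peaks, 97669 of H2A.Z and 102073 of H3. No library of the other genotype was used.

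All 4 libraries came from whole seedlings 30 days old, grown in long days (14 h in the light at 30 °C, the other 10 h dark and at 28 °C), and all carried the oschz1 mutation. The label does not name the allele. The study's text names oschz1-1 for its H2A.Z ChIP-seq, a transgene-free CRISPR/Cas9 line whose frameshift in the second exon of OsChz1 brings an early stop codon, so the data describe 1 mutant line and pooled seedlings rather than single plants or cell types. By their labels, the H2A.Z libraries were made with an anti-H2A.Z antibody from Abmart and the H3 libraries with anti-H3 from Abcam. The study's methods name no supplier for anti-H2A.Z and cite an earlier publication for it. Because whole seedlings were used, a histone present in fewer cells and a histone less abundant in each cell cannot be told apart.

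H2A.Z is a variant of histone H2A that takes its place in a share of nucleosomes, paired with H2B, and is put there by the SWR1 remodelling complex. In plants it lies mostly just after gene starts and, at genes that are poorly expressed or respond to signals, also over the gene body, while it is scarce in silent, transposon-rich chromatin. H3 is a part of every nucleosome, so an H3 ChIP follows nucleosome content rather than a particular chromatin state. OsChz1 is a rice histone chaperone that binds the dimer of H2B with H2A and that with H2A.Z. An H2A.Z peak therefore marks where the variant stands above input DNA, and an H3 peak where nucleosomes as a whole do.

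A peak here is a run of windows of 200 bp enriched over input, and windows separated by no more than 1 unenriched window are joined, so the shortest gap between peaks was 400 bp in all 4 libraries. The H2A.Z libraries held 20072324 and 18569241 ChIP reads in their peaks, against 14466571 and 9179714 in the H3 libraries. Relative to the smallest library, H3 replicate 2, the whole libraries had sizes of 1.19 and 1.12 for H2A.Z and 1.46 and 1 for H3, as recovered from the caller's fold column and the input counts. The H3 libraries thus differed more in depth from each other than the H2A.Z libraries did. Peaks with identical coordinates in the H2A.Z and the H3 library of one replicate number had the same input count in 3507 of 3507 cases for replicate 1 and 3032 of 3032 for replicate 2, against at most 3.52% in the other pairs of libraries. Each H2A.Z library had therefore been set against the same input as the H3 library of its number, so that differences between them come from the ChIP side or from the choice of peaks. Spreads are SD between the 2 libraries of an antibody, and with 2 against 2 the smallest p of a two-sided exact permutation test is 0.333, so no value per library can pass 0.05.

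H2A.Z peaks were wider and closer together than H3 peaks. Median width was 1000 bp in both H2A.Z libraries, against 800 bp in both H3 libraries. The difference grew towards the wide end. The 75th, 90th and 99th percentiles were 1800, 2800 and 5600 bp in both H2A.Z libraries. In the H3 libraries they were 1200 and 1800 bp, with a 99th percentile of 4400 bp in replicate 1 and 4200 bp in replicate 2. Mean width was 1407 ± 11.8 bp for H2A.Z and 1044 ± 16.6 bp for H3 (SD, n = 2 each; exact permutation p = 0.333). The gap between the antibodies, 363 bp, was far larger than the spread between replicates. Peaks of 4 kb or more made up 3.83% and 3.73% of H2A.Z peaks, against 1.43% and 1.19% of H3 peaks.

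The median spacing, from the end of one peak to the start of the next, was 3000 and 2800 bp for H2A.Z, against 3800 and 4200 bp for H3. The difference of 1100 bp in the means, in the direction of closer H2A.Z peaks, exceeded the spread of 141 bp for H2A.Z and 283 bp for H3 (exact permutation p = 0.333). Both ends of the distribution pointed to clustered H2A.Z peaks. Gaps of the minimum 400 bp were 10.1% and 10.0% of all gaps between H2A.Z peaks, against 6.75% and 6.37% between H3 peaks. Gaps over 20 kb held 36.4% and 36.8% of the total gap length for H2A.Z, against 20.5% and 24.4% for H3. The 5th percentile of spacing was the same, 400 bp, in all 4 libraries, while the 99th was 47100 and 47400 bp for H2A.Z, against 31600 and 35000 bp for H3. H2A.Z peaks were thus packed in groups with long empty stretches between them, and H3 peaks were spread more evenly.

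H2A.Z peaks held more ChIP reads per kb than H3 peaks, on slightly fewer input reads. Unscaled, they held 290 and 272 ChIP reads per kb, against 258 and 181 in H3 peaks. The spread within H3 followed the library sizes, and after scaling to the recovered library size the values were 289 and 287 for H2A.Z, against 209 and 214 for H3. Input reads per kb were 57.5 and 54.0 under H2A.Z peaks, against 60.7 and 56.7 under H3 peaks, so the antibodies overlapped (exact permutation p = 0.667). Within a replicate number, where the input was the same, H2A.Z peaks lay on bases with fewer input reads than H3 peaks, by 3.20 per kb in replicate 1 and 2.75 in replicate 2. The sign of this difference turned among peaks with a false discovery rate of at most 1e-10, where H2A.Z peaks held 1.84 input reads per kb more, and among those with a minimum fold of 2, where they held 16.3 more. Since fold is ChIP over input, asking for a minimum fold itself selects peaks with few input reads. At a fold of 2, input was 39.9 and 37.5 per kb under H3 peaks, against 56.8 and 53.1 under H2A.Z peaks.

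Enrichment, the sum of ChIP reads over the sum of input reads scaled to the ChIP library, was 2.13 and 2.11 for H2A.Z, against 1.46 and 1.5 for H3. The H2A.Z libraries did not overlap the H3 libraries, and the difference of 0.641 lay far beyond the SDs of 0.0149 and 0.0302 (exact permutation p = 0.333). A fold of at least 2 was reached by 25388 and 24798 H2A.Z peaks, against 8205 and 9081 H3 peaks. The mean difference in peak number, -2202 (H2A.Z minus H3) over all calls, therefore turned to 16450 when that fold was asked for. Among the peaks that reached it the enrichments lay closer, 2.50 and 2.49 for H2A.Z against 2.38 and 2.41 for H3, a difference of 0.102.

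**Figure D1:**
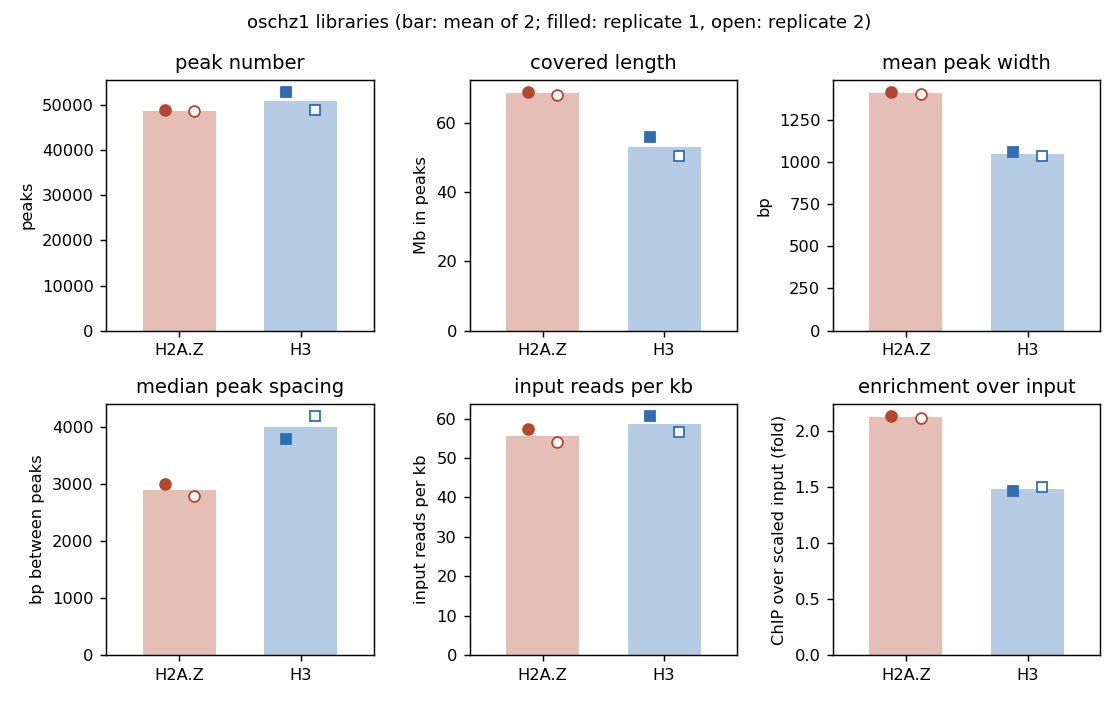
Peak number, covered length (Mb), mean peak width (bp), median spacing (bp), input reads per kb and enrichment over input (fold) in the oschz1 H2A.Z libraries (left, red) and H3 libraries (right, blue). Bars are means of 2 libraries, filled points replicate 1 and open points replicate 2, and input reads per kb is the one measure in which the libraries of the antibodies overlap, 57.5 and 54.0 for H2A.Z against 60.7 and 56.7 for H3.

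Width and enrichment ran in opposite directions for the antibodies. Among H2A.Z peaks, enrichment was 1.94 and 1.95 at 200 to 400 bp, 2.13 and 2.12 at 1200 to 2000 bp, and 2.27 and 2.23 at 4 kb or more. Among H3 peaks it was 1.74 and 1.82 at 200 to 400 bp, 1.42 and 1.45 at 1200 to 2000 bp, and 1.33 and 1.36 at 4 kb or more. Both libraries of each antibody followed the same order over all 5 width classes. The antibodies were therefore closest in enrichment in their narrowest peaks and furthest apart in their widest ones. Narrow peaks hold fewer reads and so need a higher fold to pass the caller's false discovery rate. The part of this in the change with width was not tested.

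Input under the peaks changed less with width in H2A.Z than in H3. H2A.Z peaks of 200 to 400 bp lay on 56.6 and 52.0 input reads per kb, and those of 4 kb or more on 57.9 and 54.5. The matching values for H3 peaks were 57.7 and 54.4 for the narrowest class and 63.6 and 59.3 for the widest. The part of input in the lower enrichment of wide H3 peaks was not tested.

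The share of bases that also lay in peaks of the other antibody depended on width as well. It was 35.3% and 32.8% for H2A.Z peaks of 1200 to 2000 bp, and 28.9% and 26.1% for those of 4 kb or more. For H3 it was 45.9% in both libraries at 1200 to 2000 bp, against 7.67% and 7.22% at 4 kb or more. The widest H3 peaks thus lay almost wholly outside H2A.Z peaks, whereas the widest H2A.Z peaks did not avoid H3 to that degree.

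**Figure D2:**
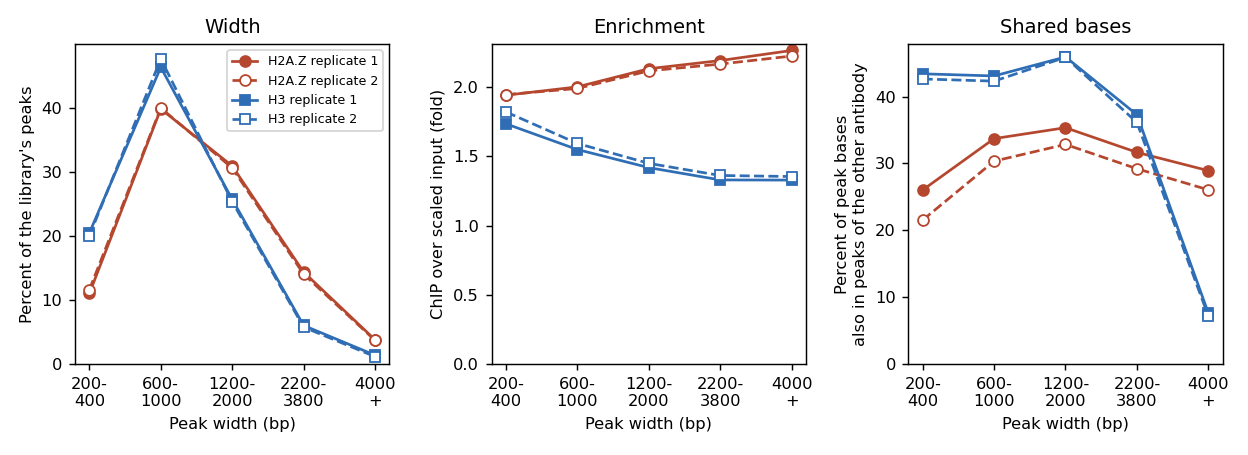
Percent of peaks, enrichment over scaled input (fold) and percent of bases shared with peaks of the other antibody of the same replicate number, by peak width in bp, for H2A.Z (red circles) and H3 (blue squares), with replicate 1 filled and replicate 2 open. Enrichment of H2A.Z climbs to 2.27 and 2.23 in the widest class while that of H3 drops to 1.33 and 1.36, and the shared bases of H3 peaks fall to 7.67% and 7.22% there.

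The bases of the genome were then sorted by which antibody covered them. In replicate 1, 22.7 Mb lay in peaks of both antibodies, 46.5 Mb in H2A.Z peaks alone and 33.3 Mb in H3 peaks alone. In replicate 2 these were 20.5, 47.8 and 30.1 Mb. As a share of each set, 32.8% and 30.0% of H2A.Z bases were also in H3 peaks, and 40.5% of H3 bases in both replicates were also in H2A.Z peaks. For comparison, H3 peaks covered 10.9% and 9.84% of the bases outside H2A.Z peaks. Pairing the libraries across replicate numbers gave 20.5 and 22.3 Mb covered by both, so it followed the H3 library used, at 22.7 and 22.3 Mb with H3 replicate 1 and 20.5 Mb each with H3 replicate 2, and not the matching of numbers.

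In reproducible form, counting a base only where both libraries of an antibody agreed and, for a base of one antibody alone, where neither library of the other had a peak, 14.7 Mb belonged to H2A.Z and H3, 34.0 Mb to H2A.Z alone and 21.4 Mb to H3 alone. These were 21.0%, 48.5% and 30.5% of the sum of the 3 classes. A further 11.9 Mb had H2A.Z in both libraries and H3 in 1, against 0.902 Mb with H3 in both and H2A.Z in 1, and the H2A.Z replicates had 60.6 Mb in common, against 37.0 Mb for the H3 replicates. No library had a peak in 256.8 Mb, 68.6% of the 374.3 Mb of genome before the end of each chromosome's last peak. At a minimum fold of 2 the classes shrank to 0.194 Mb, 26.7 Mb and 0.940 Mb, so nearly all reproducible shared bases came from peaks of which at least 1 antibody had a low fold.

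The classes were laid out in short runs. Shared bases formed 17077 runs of 863 bp on average, H2A.Z alone 42827 runs of 794 bp and H3 alone 23309 runs of 916 bp. Runs of a single window were 28.3% of those with H2A.Z alone, against 9.6% of those with H3 alone and 6.05% of shared runs. The longest run of each kind reached 11800 bp for H2A.Z alone, 13400 bp for H3 alone and 5200 bp for shared bases.

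The longest shared run lay on chromosome 11 at 3452601 to 3457800 of the MSU rice genome. Enrichment of the H2A.Z peaks there was 2.61 and 2.47, against 1.08 and 1.07 for the H3 peaks. The next longest, on chromosome 2 at 12979801 to 12984800 and chromosome 8 at 1468601 to 1473000, were of the same kind, with H2A.Z enrichments of 2.96 and 2.59 against 1.35 and 1.15 for H3 in the first, and 2.93 and 3.07 against 1.15 and 1.14 in the second. In all 3, H2A.Z stood above its library mean and H3 below its own. In the longest, H3 lay near the lowest fold of any H3 peak, 1.05 and 1.06 in the libraries. Input under the H3 peaks there was 84.4 and 89.4 reads per kb, against library means of 60.7 and 56.7.

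The longest run of H2A.Z alone lay on chromosome 6 at 28372801 to 28384600, within 1 peak of 13200 bp in replicate 1 and 13400 bp in replicate 2, with enrichments of 2.25 and 2.16. A pair of runs of 9800 bp on chromosome 1 followed, at 716201 to 726000 with enrichments of 1.97 and 2.10 and at 30359801 to 30369600 with 2.37 and 2.30. Neither H3 library had a peak in any of the 3. The longest runs of H3 alone were on chromosome 9 at 13225601 to 13239000, on chromosome 10 at 5611801 to 5624800 and on chromosome 2 at 11134801 to 11147200. H3 enrichment in them was 1.34 and 1.40, 1.80 and 1.76, and 1.64 and 1.6, with 83.8 and 72.8 input reads per kb in the first, well above the library means of 60.7 and 56.7. Long H3 runs thus included both strongly and weakly enriched ones.

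The position of one antibody around the peak edges of the other was not symmetric. Moving outwards from H2A.Z peaks over bases that no H2A.Z peak covered, H3 peaks held 6.34% and 5.79% of the first 200 bp window and 5.11% and 4.72% of the second, the lowest on that side. Further out, at 1000 to 1200 bp, they held 8.95% and 8.16%. Over all bases outside H2A.Z peaks, the share to set these against, H3 peaks held 10.9% and 9.84%. The second window inside H2A.Z peaks had 35.6% and 32.2% H3 coverage, and H3 coverage was still 28.1% and 24.6% at 3800 to 4000 bp inside those peaks wide enough to reach it. H3 peaks were hence scarcest in the bases flanking H2A.Z peaks and most common within them.

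Around H3 peaks, H2A.Z showed no such gap. H2A.Z peaks held 25.2% and 25.4% of the first window outside H3 peaks and 15.5% and 15.7% of the second, against 14.6% and 14.8% of all bases outside H3 peaks. The lowest of the outer windows, at 400 to 600 bp, had 14.3% and 14.6%, close to that share. Inside H3 peaks H2A.Z covered 43.8% and 43.3% of the second window, and then less and less with depth, 9.06% and 8.46% at 3800 to 4000 bp. That decline went with the low overlap of the widest H3 peaks, the only ones that reach so far in.

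**Figure D3:**
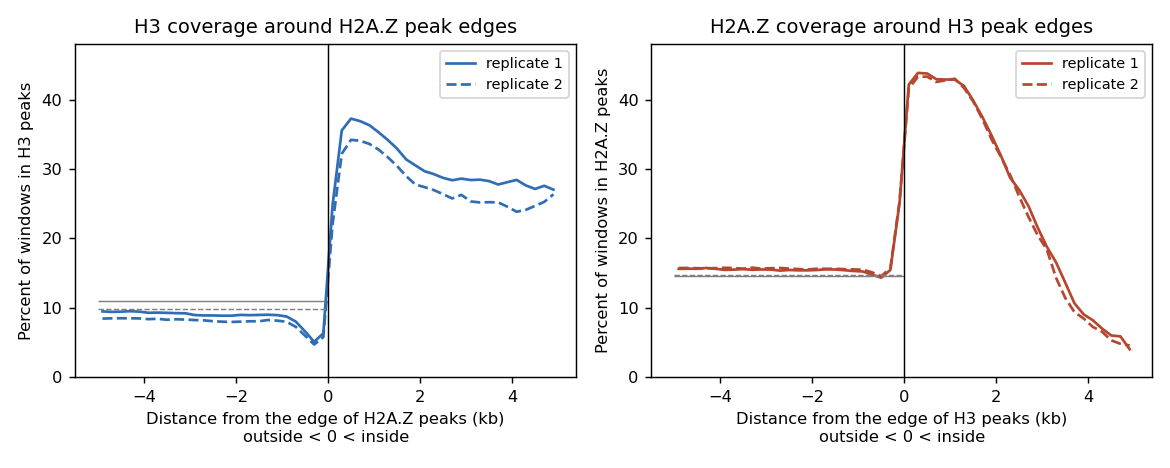
Percent of 200 bp windows in H3 peaks around the edges of H2A.Z peaks (left) and in H2A.Z peaks around the edges of H3 peaks (right), by distance from the edge in kb, negative outside and positive inside, for the libraries of the same replicate number (solid 1, dashed 2). Grey lines give the share over all bases outside the peaks, 10.9% and 9.84% on the left and 14.6% and 14.8% on the right, and H3 coverage dips to 5.11% and 4.72% just outside H2A.Z peaks.

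H2A.Z peaks that met an H3 peak differed from those that did not. By an overlap of at least 1 bp, 48.5% and 44.4% of H2A.Z peaks met an H3 peak, with an enrichment of 2.33 and 2.32, against 1.86 and 1.87 for H2A.Z peaks without H3. By this rule those with H3 were also wider, 1647 and 1651 bp on average against 1198 bp in both libraries. They lay on more input, 59.8 and 56.1 against 54.5 and 51.6 reads per kb. The width difference turned at an overlap of at least 50% of the peak. There, peaks with H3 averaged 1341 and 1335 bp, against 1459 and 1431 bp without. The part of width and input in the difference was not tested.

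H3 peaks behaved the other way. Of these, 47.4% and 46.8% met an H2A.Z peak, with an enrichment of 1.42 and 1.46, against 1.5 and 1.56 for H3 peaks without H2A.Z. Their widths hardly differed, 1041 and 1023 bp with H2A.Z against 1069 and 1040 bp without, but input did, 66.3 and 62.2 against 55.7 and 52.0 reads per kb. The lower enrichment of H3 peaks with H2A.Z thus went with a higher input, and the part of input in it was not tested. Unscaled, they held more ChIP reads, 275 and 192 per kb against 244 and 172. Where they did not overlap, an H2A.Z peak lay a median of 2200 bp from the nearest H3 peak in both replicates, and an H3 peak 3200 bp from the nearest H2A.Z peak.

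Along the chromosomes, H2A.Z coverage varied and H3 coverage hardly did. On chromosome 3, the most covered by either antibody, peaks took up 24.6% and 24.2% for H2A.Z, against 15.8% and 14.5% for H3. On chromosome 12, the least covered, they took up 12.9% and 12.7% for H2A.Z, against 13.9% and 12.6% for H3. The highest chromosome thus exceeded the lowest by 1.91 and 1.90 times for H2A.Z and by 1.14 and 1.15 times for H3. Number, width and spacing of peaks all took part for H2A.Z. Its peaks per Mb ranged from 102 on chromosome 12 to 160 on chromosome 3 in replicate 1, its mean width from 1258 bp to 1533 bp on the same chromosomes, and its median spacing from 2400 bp on chromosomes 1 and 3 to 4200 bp on chromosome 12. Enrichment, by contrast, differed by at most 1.04 times between chromosomes in any of the 4 libraries.

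Both H2A.Z libraries lay above both H3 libraries on 9 of 12 chromosomes (75%), and they overlapped on chromosomes 10, 11 and 12. With limma on log2 percent covered and Benjamini-Hochberg adjustment, H2A.Z coverage was higher on 8 of 12 chromosomes (66.7%) and lower on 0 (0.0%, also 0 at an unadjusted p of 0.05). The log2 difference was 0.71 ± 0.07 (SE) on chromosome 1, 0.69 on chromosome 3 and 0.62 on chromosome 2, against -0.04 on chromosome 12. Because the H3 libraries differ from each other in the same direction on every chromosome, chromosomes are not independent and these calls are firmer than the data warrant. Without H2A.Z replicate 1, or without H2A.Z replicate 2, only chromosomes 1 to 4 passed. Without H3 replicate 1, 11 chromosomes were higher, and without H3 replicate 2, 9 were higher and chromosomes 11 and 12 lower. As a share of all bases covered by a library, which removes the overall difference, H2A.Z was higher on 3 chromosomes, 1, 2 and 3, and lower on 8.

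Of the base classes, the ratio of H2A.Z alone to H3 alone went in nearly the order of the log2 differences. Bases of H2A.Z alone exceeded those of H3 alone by 2.50 times on chromosome 1, 2.40 on chromosome 3 and 2.24 on chromosome 2, and by 1.01 times on chromosome 12. The share of reproducible H3 bases that also had H2A.Z was 50.4% on chromosome 1 and 27.3% on chromosome 12, the highest and lowest of the 12. It did not follow H2A.Z coverage throughout. Chromosome 3, the most covered by H2A.Z, had 48.2%. Chromosome 4, more covered by H2A.Z than chromosome 6, had 37.9% against 41.1%. More H2A.Z coverage also raises this share in part by itself, so it is given as a description. The share of H2A.Z bases that also had H3 stayed between 22.4% and 27.4% on all 12.

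**Figure D4:**
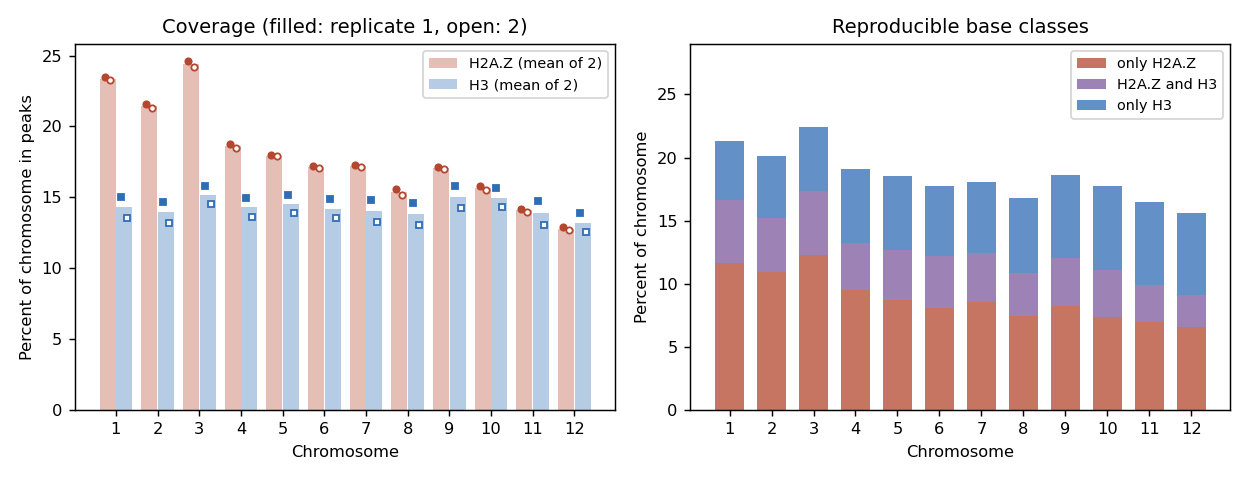
Percent of each of the 12 chromosomes in H2A.Z peaks (red, left bar of each pair) and H3 peaks (blue, right bar), with bars at the mean of 2 libraries and points for each replicate, and, in the second panel, percent of each chromosome in the reproducible base classes. H2A.Z ranges from 24.4% on chromosome 3 to 12.8% on chromosome 12, against 15.2% and 13.2% for H3.

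In bins of 1 Mb the contrast was sharper. Over 373 bins, H2A.Z coverage ran from 1.44% to 37.4% in replicate 1 and from 1.44% to 38.2% in replicate 2, against 8.20% to 24.1% and 7.78% to 21.2% for H3. The coefficient of variation over bins was 51.2% and 51.3% for H2A.Z, against 16.4% and 16.9% for H3. Bin coverage was close to the same in the H2A.Z replicates, with Pearson's r of 0.998, and also alike in the H3 replicates, with r of 0.923. Between H2A.Z and H3 of the same number it was -0.06 and -0.04. These are descriptions over 373 bins, in which the same-numbered libraries share an input and neighbouring bins are not independent. The antibodies thus showed almost no shared pattern at this scale.

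Both H2A.Z libraries lay above both H3 libraries in 212 bins (56.8%) and below both in 140 (37.5%). The limma fit on log2 of percent covered plus 1 gave 201 bins higher (53.9%) and 134 lower (35.9%) at an adjusted p of at most 0.05. This fit treats bins as independent, but H3 replicate 1 exceeded H3 replicate 2 in 346 of the 373 (92.8%), so no p of a single bin is given. On the scale of shares of a library's covered bases, 172 were higher and 174 lower, and among peaks with a minimum fold of 2, 359 were higher and 4 lower. The bins below were common on some chromosomes and rare on others, from 6 of 36 on chromosome 3 and 7 of 43 on chromosome 1 to 16 of 28 on chromosome 12.

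The lowest bin by the log2 difference was at 19 to 20 Mb of chromosome 3, otherwise the chromosome richest in H2A.Z. There H2A.Z covered 3.56% and 3.76%, against 24.1% and 21.2% for H3, the highest H3 coverage of any bin in either library. In the next lowest, at 12 to 13 Mb of chromosome 11, H2A.Z covered 1.56% and 1.6%, against 12.8% and 9.92% for H3. At 11 to 12 Mb of chromosome 12, 10 to 11 Mb of chromosome 4 and 8 to 9 Mb of chromosome 10, H2A.Z covered between 2.60% and 3.06% in either library, against 14.3% to 18.1% for H3. The log2 differences of these 5 bins ran from -2.34 to -2.12. All of them lie inside their chromosome rather than at an end. With a minimum fold of 2 for peaks the differences were 0.02 on chromosome 3, 0.08 on chromosome 11, -0.07 on chromosome 4 and 0.38 on chromosome 10. The bin of chromosome 12 alone stayed past the threshold as lower, and that of chromosome 10 passed it as higher. H3 peaks of that fold covered only 5.27 and 5.99 Mb in all, so the 1 added to percent covered can shrink these differences.

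The highest bins lay elsewhere. At 31 to 32 Mb of chromosome 4, H2A.Z covered 32.3% in both libraries, against 9.72% and 9.90% for H3, a log2 difference of 1.62. At 34 to 35 Mb of chromosome 2 it covered 28.2% and 28.6%, against 9.98% and 8%. The others were at 26 to 27 Mb of chromosome 8, at 30 to 31 Mb of chromosome 4 and at 1 to 2 Mb of chromosome 3, with log2 differences of 1.47, 1.40 and 1.38. In these 5 bins H3 coverage was 8% to 14.2%, in percent more than the H2A.Z coverage of the lowest bins. H3 varied less over bins, however, and its lowest values in any bin were 8.20% and 7.78%. The bins at 31 to 32 Mb of chromosome 4, on chromosome 2 and on chromosome 8 were poor in H3. They lay below the 10th percentile of H3 coverage, 12.2% and 10.6%, in both libraries. Ranking by the difference thus favoured low H3 as well as high H2A.Z.

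**Figure D5:**
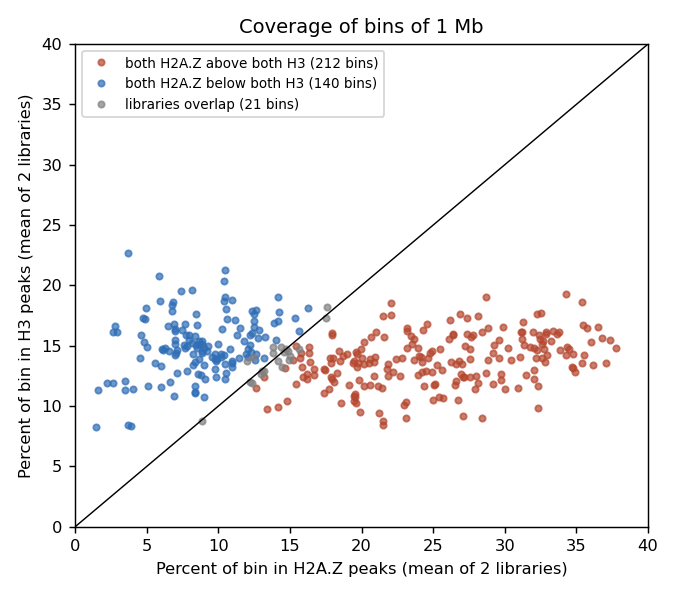
Percent of each 1 Mb bin in H2A.Z peaks (x axis) against percent in H3 peaks (y axis), as means of 2 libraries, for 373 bins. Red points are the 212 bins in which both H2A.Z libraries lie above both H3 libraries, blue points the 140 in which they lie below, and grey points the rest, and H3 stays in a narrow band along the whole range of H2A.Z.

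Sorting the bins by their mean H2A.Z coverage into quintiles showed what H3 did along this range. H2A.Z coverage averaged 6.48% and 6.36% in the lowest quintile and 32.4% and 32.1% in the highest, as the sorting fixes. H3 coverage was 15.5% and 14.0% in the lowest quintile and 15.4% and 13.9% in the highest. In between, in the middle quintile, it was 14.3% and 12.9%. The ends thus differed by less than the H3 replicates did.

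The make-up of that H3 coverage did differ. Of all H3 peaks of 4 kb or more, 36.9% and 38.6% lay in the lowest quintile of bins and 11.9% and 10.6% in the highest. Mean H3 width was 1144 and 1111 bp in the lowest quintile and 1047 and 1025 bp in the highest. Input under H3 peaks was 57.6 and 53.7 reads per kb in the lowest and 64.1 and 59.8 in the highest. H3 enrichment, at 1.47 and 1.52 in the lowest and 1.42 and 1.46 in the highest, moved little. The share of H3 bases that also had H2A.Z was 14.6% and 14.7% in the lowest quintile and 66.0% and 65.7% in the highest, an increase that the sorting by H2A.Z coverage brings about and that is given as a description.

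H2A.Z peaks of 4 kb or more had the opposite distribution, with 2.14% and 2.47% in the lowest quintile and 51.7% and 51% in the highest, which the sorting by H2A.Z partly fixes. Their enrichment over all widths was nearly level, 2.08 in both libraries in the lowest quintile against 2.14 and 2.12 in the highest. The share of H2A.Z bases that also had H3 was 34.9% and 32.3% in the lowest quintile and 31.3% and 28.3% in the highest. Mean H2A.Z width was 1097 and 1089 bp in the lowest quintile, against 1672 and 1660 bp in the highest. Coverage grows with peak width, so the sorting by H2A.Z also partly fixes this difference in width, which is given as a description.

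Read counts can be compared base for base only where all 4 libraries had a peak with the same start and end. There were 908 such peaks, 0.836 Mb with a median width of 800 bp, or 1.86% of the peaks of H2A.Z replicate 1. Together they had an enrichment of 2.58 and 2.55 for H2A.Z, against 1.52 and 1.53 for H3, over the same input counts. Scaled to library size, they held 431 and 422 H2A.Z reads per kb, against 253 and 252 for H3. Both H2A.Z libraries lay above both H3 libraries in 776 (85.5%) and below both in 35 (3.85%).

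With edgeR's quasi-likelihood test and the recovered library sizes, H2A.Z was higher in 712 of the 908 (78.4%) and lower in 19 (2.09%) at an adjusted p of at most 0.05. The median log2 difference was 0.68, ranging from -0.72 to 1.53. It depended on width, with medians of 0.34 for the 118 peaks of 200 to 400 bp, 0.63 for 549 of 600 to 1000 bp, 0.90 for 225 of 1200 to 2000 bp and 1.05 for the 16 that were wider. Here too, narrow peaks need a higher fold to be called, and the part of this was not tested. The direction rested on the library size. With reads in peaks as library size the median was -0.13, with 144 higher and 317 lower, and with TMM factors it was -0.0049, with 259 higher and 259 lower. The values below are therefore to be read against the median of 0.68.

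The peak that leaned most to H2A.Z was on chromosome 6 at 11389601 to 11390600, with 680 and 623 H2A.Z reads, against 277 and 202 H3 reads (log2 difference 1.53 ± 0.09 SE; edgeR adjusted p = 2.26e-20). Its enrichment was 4.05 and 3.68 for H2A.Z, against 1.34 in both H3 libraries, on 71 input reads in each replicate. Peaks on chromosome 9 at 7444201 to 7445000, chromosome 12 at 20111001 to 20112000, chromosome 3 at 4712001 to 4713000 and chromosome 1 at 26324001 to 26324600 followed, with log2 differences of 1.5, 1.5, 1.48 and 1.42. H2A.Z enrichment in these 4 was 3.45 to 4.50 in either library, against 1.20 to 1.72 for H3. They combined strong H2A.Z with H3 enrichments on either side of the value for the whole library. On chromosomes 9 and 12 H3 lay below that value in both replicates, and on chromosome 1 above it in both. On chromosome 3 it lay below in replicate 1, at 1.21, and above in replicate 2, at 1.58. Ranking by the difference favours low H3 as well as high H2A.Z.

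The peak that leaned most to H3 was on chromosome 12 at 13828801 to 13829800, with 147 and 177 H2A.Z reads, against 367 and 207 H3 reads (log2 difference -0.72 ± 0.13 SE; edgeR adjusted p = 3.90e-06). The replicates were not alike there, with H3 enrichments of 3.71 and 1.5 on 34 and 65 input reads. The others were on chromosome 3 at 36174801 to 36175400 and 25050601 to 25051400, chromosome 4 at 22805401 to 22805800 and chromosome 10 at 22857401 to 22859400, with log2 differences of -0.68, -0.56, -0.54 and -0.50. In these 4 the H2A.Z enrichment was 1.21 to 2.06, against 1.71 to 2.81 for H3. The 5 peaks at either end kept their sign under each scaling tried. These peaks were picked for the size of their difference, and another library size shifts all peaks by nearly the same amount. Their kept sign is therefore no further support.

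Outside identical peaks, the extent of the peaks was compared. Merging the peaks of all 4 libraries gave 82896 regions, of which 16572 had a peak in every library. In these the median number of covered bases was 1400 in both H2A.Z libraries, against 1000 in both H3 libraries. Both H2A.Z libraries covered more bases than both H3 libraries in 54.7% of the regions and fewer in 9.58%. Where the antibodies met, the H2A.Z peak was therefore more often the wider one.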

How the data were processed

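The 4 oschz1 ChIP libraries were taken from the series by their titles, and the peak tables of the other genotype were not used. According to the study's methods, the authors mapped reads with Bowtie2 to the rice genome, removed reads of low mapping quality and duplicates with SAMtools and, for H2A.Z, called peaks per library against input with SICER in windows of 200 bp at a false discovery rate of 0.05. The caller for H3 is not given in the sources used here, but its tables have the same layout and grid. The deposited tables hold positions, unnormalised counts of ChIP and of input reads, p-values, q-values and a fold ratio over input from the authors' caller. Reads outside a library's own peaks are not part of them. The deposited p-values belong to peak calls within a library and measure no spread between samples. Those of the tests run here measure only the spread between these libraries, which limma pooled over bins or over chromosomes.

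Positions were put on the 200 bp grid, and library sizes were recovered from the constant between the deposited fold and the count ratio. Tests were exact permutations per library (scipy 1.17.1), limma 3.58.1 on coverage of chromosomes and 1 Mb bins, and edgeR 4.0.16 in R 4.3.3 on identical peaks, with Benjamini-Hochberg adjustment over all features. The edgeR and limma steps were tested on simulated data with independent noise in each feature and library. For bins this leaves out the shift between the H3 libraries, so the simulation cannot tell how firm the calls are. Named regions were the 3 longest runs of each class and the 5 highest and 5 lowest bins and identical peaks past the threshold without overlap of the antibodies. Members, lists and tests were chosen with earlier results of these data known. Gene annotation and sequence were not used here. Alternatives were a minimum fold of 2, a false discovery rate of 1e-10, peaks less than 600 bp apart joined, an overlap of 50%, centred shares, pseudocounts, 0.5 Mb bins, other library sizes, DESeq2 1.42.0, merged regions, a replicate block and leaving out each library.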

Additional observations from a re-analysis of the deposited data

How the results depend on the processing

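Width, covered length, spacing, ChIP reads and enrichment kept their direction under each alternative tried, but not their size. At a fold of at least 2 the differences were 922 bp in width (main 363), 33.8 Mb in covered length (15.4), -21500 bp in spacing (-1100) and 0.102 in enrichment (0.641), and at 1e-10 spacing differed by -9000 bp and covered length by 36.9 Mb. Unscaled ChIP reads per kb differed by 22.7 without H3 replicate 2 and 99.7 without H3 replicate 1 (61.2). Peak number did not: the difference was 18027.5 more H2A.Z peaks at a false discovery rate of 1e-10 and 16450 more at a fold of at least 2, and it ran from -4208.5 to -195.5 when one library was left out. Input reads per kb differed by 1.84 and 16.3 under the same settings, and by -4.95 to -1.0 without one library. Scaling the input of replicate 1 to that of replicate 2, chosen after seeing the data, gave 53.8 and 54.0 for H2A.Z against 56.8 and 56.7 for H3. The base classes (H2A.Z and H3, H2A.Z alone, H3 alone) were 2.93, 39.6 and 7.10 Mb at 1e-10 and 0.194, 26.7 and 0.940 Mb at a fold of at least 2. Joining peaks gave 35.4 Mb of H2A.Z alone. Leaving out one library gave 15.2 to 21.6, 39.0 to 41.3 and 21.8 to 32.6 Mb. With an overlap of 50%, enrichment with minus without the other antibody was 0.432 for H2A.Z and -0.0737 for H3. Mean width then turned for H2A.Z, 1341 and 1335 bp with H3 against 1459 and 1431 bp without. For H3 it was 993 and 982 bp with H2A.Z against 1106 and 1071 bp without. Chromosome calls were 11 (3 higher, 8 lower) as centred shares and 4 to 11 without one library. Bin calls were 346 (172 higher, 174 lower) as centred shares and 651 in bins of 0.5 Mb, and the named bins of chromosomes 3, 11 and 10 turned to 0.021, 0.078 and 0.38 at a fold of at least 2. Identical peaks gave 461 calls (144 higher, 317 lower) with reads in peaks as library size, 518 with TMM, 312 with DESeq2 (163 higher, 149 lower), 10288 in merged regions with covered length as an offset and 8976 with limma on log2 ChIP over input. With the replicate number as a block there were 9 chromosome, 340 bin and 734 peak calls. Whether same-numbered libraries were paired beyond their shared input is not given in the sources used here. Their deviations correlated by 0.28, 0.01 and 0.02 over chromosomes, bins and peaks. Such a correlation leaves out a shift common to all features, so it cannot decide the question. Merged regions and 0.5 Mb bins had 16572 and 740 features to test, against 908 and 373. The causes of the other changes were not tested. The shallower H3 replicate 2 limits what can be said of weak H3 peaks.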

Other observations

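The longest stretch of a chromosome without an H2A.Z peak was the same in both replicates, 586.2 kb on chromosome 6 at 18218801 to 18805000. It was followed by 556.2 and 556.4 kb on chromosome 11, from 12011401 and 12011201 to 12567600, and 411.4 and 531.6 kb on chromosome 7. The longest stretches without an H3 peak on the 12 chromosomes were 306.6 and 307 kb on chromosome 4, from 15546001 and 15547401, and 237.8 and 282 kb on chromosome 11, which lay within the empty stretch of H2A.Z there. On ChrSy and ChrUn, which are not among the 12 chromosomes, coverage was lower for H2A.Z than for H3 in both cases. On ChrSy it was 3.32% and 4.20% for H2A.Z, against 7.52% and 7.82% for H3, and on ChrUn 0.255% and 0.319%, against 1.31% and 2.14%. These sequences hold 3 to 50 peaks per library, so the values rest on few peaks.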
